A study of Homo sapiens with 6 samples.

Results

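The secreted matrix proteins other than collagens were examined here as a set of 10 genes out of the 18372 genes measured: MGP, FN1, TNC, THBS1, THBS2, SPARC, SPP1, LAMB1, LAMC1 and FBN1. Probe sets with exactly 1 gene symbol were kept, and for each symbol the probe set with the highest mean signal over all 6 arrays was read. Each of the 10 genes had 1 probe set, so that choice changed none of them, and the genes themselves were picked by name with earlier results of these arrays known. The cells were A375, an established human melanoma line, collected 72 h after transfection with siRNA against FAH (siFAH, 3 arrays) or with negative control siRNA (3 arrays). FAH is fumarylacetoacetate hydrolase, the last enzyme of tyrosine breakdown, and the profiling asked which transcripts changed when it was silenced. Each array was an Affymetrix Human Gene 1.0 ST chip that read the total RNA of 1 sample. Both groups were transient transfections of 1 cell line, and the array labels do not say which of the siRNAs against FAH was used. A signal is a log2 value, so a difference of 1 is a doubling. Signals of different probe sets are on their own scales. Changes are read between groups, and where genes are called bright or dim the ranking by signal is approximate.

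The extracellular matrix is a network of collagens and glycoproteins that cells secrete and attach to. Fibronectin, fibrillin and the laminins assemble into fibrils or sheets that integrins on the cell surface bind. Tenascin-C, the thrombospondins, SPARC and osteopontin are matricellular proteins, which tune adhesion and signaling more than they bear load, while MGP is a small vitamin K-dependent protein best known as an inhibitor of calcification. Melanoma cells make many of these proteins themselves, and tenascin-C, fibronectin, SPARC and osteopontin have long been studied in this tumor.

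Among these genes, MGP was 2.71-fold higher and FN1 1.51-fold higher in siFAH cells. TNC was 1.65-fold, THBS1 1.57-fold, LAMB1 1.26-fold and LAMC1 1.22-fold lower, and THBS2, SPARC, SPP1 and FBN1 did not pass the test. The set therefore split, with 2 genes called higher, 4 called lower and 4 not called at an adjusted p under 0.05 in limma, a linear model fitted across all genes with p values adjusted by Benjamini and Hochberg over the 18372 genes. Of all genes, 3.48% were called higher and 6.38% lower. The median change of the 10 genes was 0.0023 on the log2 scale, against 0.005 over all genes, with members on both sides of 0. That median was -0.017 after quantile normalization and 0.043 after cyclic loess, so its sign depended on the scaling. With the methods' t-test none of the 10 passed after Benjamini-Hochberg adjustment (lowest adjusted p 0.0798). It called few genes at all, 6 higher and 8 lower of the 18372, so 0 of 10 does not set these genes apart. At an unadjusted p under 0.05 in that test, 2 members were higher and 4 lower. The share of all genes at that unadjusted limit was not computed, so these member counts have no background to be read against.

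The promoters of FN1, TNC and THBS1 are shown because these genes encode adhesive glycoproteins that were called in opposite directions, FN1 higher and TNC and THBS1 lower. They come from RefSeq (GRCh38.p14) and are 300 bases around the gene start on the gene's own strand. FN1 lies at chr2:215436019-215436318 on the minus strand, TNC at chr9:115118108-115118407 on the minus strand and THBS1 at chr15:39580829-39581128 on the plus strand. Capitals mark matches to the motifs searched on both strands. The core promoter motifs were the TATA box, searched as TATAAA, the box named for its letters CCAAT, and the GC box, searched as GGGCGG. The response motifs were the cyclic AMP response element, searched as TGACGTCA, the AP-1 site, searched with any base in the middle as TGANTCA, and the TEAD site, searched as GGAATG.
FN1: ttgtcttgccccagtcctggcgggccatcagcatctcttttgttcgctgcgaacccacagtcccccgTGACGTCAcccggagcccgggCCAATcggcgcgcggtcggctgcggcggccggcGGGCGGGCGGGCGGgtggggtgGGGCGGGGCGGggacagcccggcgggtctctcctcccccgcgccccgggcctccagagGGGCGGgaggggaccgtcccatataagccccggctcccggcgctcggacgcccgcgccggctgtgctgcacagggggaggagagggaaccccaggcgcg
TNC: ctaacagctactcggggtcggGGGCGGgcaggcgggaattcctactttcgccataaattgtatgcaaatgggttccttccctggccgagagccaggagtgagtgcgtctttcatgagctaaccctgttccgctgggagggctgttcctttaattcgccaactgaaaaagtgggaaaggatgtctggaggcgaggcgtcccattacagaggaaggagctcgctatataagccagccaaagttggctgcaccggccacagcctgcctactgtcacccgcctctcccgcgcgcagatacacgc
THBS1: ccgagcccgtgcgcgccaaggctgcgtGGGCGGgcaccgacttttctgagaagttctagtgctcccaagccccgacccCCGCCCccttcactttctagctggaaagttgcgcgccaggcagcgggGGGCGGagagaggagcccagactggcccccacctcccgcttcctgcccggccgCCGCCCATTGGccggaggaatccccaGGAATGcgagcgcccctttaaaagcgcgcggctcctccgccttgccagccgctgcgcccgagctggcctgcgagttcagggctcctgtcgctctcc

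The GC box, which Sp1-type factors bind, had 6 matches in the FN1 promoter, 1 in the TNC promoter and 4 in the THBS1 promoter. Both FN1 and THBS1 held the CCAAT box, which had no match in the TNC promoter. FN1 alone of these promoters held the full cyclic AMP response element, whose first base was at -183 from the start, and THBS1 alone held the TEAD letters, at -46. Runs of GGGCGG in FN1 overlap each other, and in THBS1 the last GC box and the CCAAT box, both read on the opposite strand, stand side by side. Promoters were found for 9 of the 10 genes, MGP being the one without an entry. Over those 9, the GC box was in 5, against 45.0% of all 35116 promoters of the same length. The CCAAT box was in 2, against 34.6%, and the TEAD letters were in 4, against 14.0%. The exact letters TATAAA were in 1 (THBS2), against 11.5%. FN1 and TNC hold the near match TATAAG, which the search for the TATA box did not count. The cyclic AMP response element was in 1, against 1.85%, and the AP-1 letters in 0, against 7.71%. The share of G and C bases was 79.0% in LAMC1, 76.7% in FN1, 71.0% in LAMB1 and 70.0% in THBS1, and 57.3% in TNC and 47.7% in SPP1. FBN1 had 68.3%, THBS2 61.7% and SPARC 61.3%. The 4 promoters richest in G and C belonged to called genes, and TNC, also called, was poorer than all but SPP1. Calls by promoter composition were not computed over all genes, so this order has no background to be read against. A match is a description of letters and no evidence of binding.

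FAH itself was read first, as the check of the knockdown. Its signals were 4.92, 4.60 and 4.92 in the siFAH arrays, against 5.48, 5.59 and 5.68 in the control arrays. Every siFAH array was below every control array, and FAH was 1.70-fold lower (log2 change -0.77, SE 0.098, limma adjusted p = 0.00213). Array medians were 5.003 to 5.038 in siFAH and 4.922 to 4.996 in control arrays. Correlations across probe sets were 0.995 to 0.997 within a group and 0.9881 to 0.9953 between groups. With 3 arrays against 3 an exact permutation test cannot give a two-sided p under 0.1, so no such test was run on single genes, and every p value given for a single gene comes from the limma fit unless the methods' t-test is named. The methods call the arrays biological replicates. RNA of a whole culture does not tell fewer cells expressing a gene apart from less RNA per cell.

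MGP, matrix Gla protein, is carboxylated by the vitamin K cycle and binds calcium and bone morphogenetic proteins. Its signals were 8.57, 8.71 and 8.44 in the siFAH arrays and 7.23, 7.23 and 6.94 in the control arrays. The groups did not overlap, with more than a unit of log2 signal between the lowest siFAH array and the highest control array. The log2 change was 1.44 (SE 0.098, 95% interval 1.22 to 1.66, limma adjusted p = 0.000227). Only 1 of the 18372 genes had a higher log2 change. The spread within groups was small beside it (SD 0.13 in siFAH and 0.17 in control arrays, n = 3 each). Leaving out each array in turn gave changes of 1.34 to 1.50, and MGP stayed called each time. MGP sits on chromosome 12.

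FN1 on chromosome 2 encodes fibronectin, the fibril-forming glycoprotein that integrins bind through its RGD sequence. It gave signals of 8.19, 8.15 and 7.97 in siFAH arrays and of 7.38, 7.48 and 7.69 in control arrays. The lowest siFAH array and the highest control array, replicate 3 of each group, came closest, and the groups did not overlap. Its log2 change was 0.59 (SE 0.094, interval 0.38 to 0.80, adjusted p = 0.00528). It remained called without each array, at log2 changes of 0.52 to 0.68. Of the 18372 genes, 129 had a higher log2 change.

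**Figure D1:**
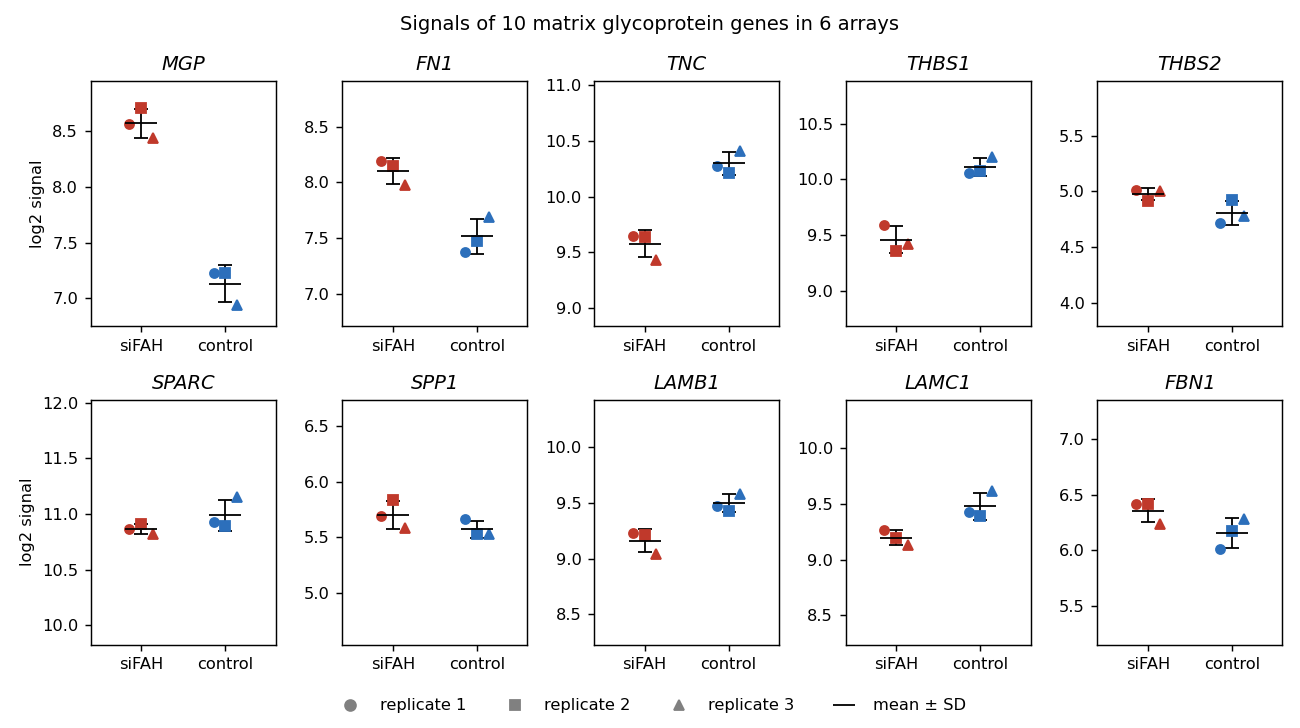
Log2 signal (vertical axis) of the 10 matrix genes in each of the 6 arrays, siFAH left and control siRNA right in each panel, with points shaped by replicate and bars for the mean and SD of 3 arrays. MGP and FN1 have all siFAH points above the control points, TNC, THBS1, LAMB1 and LAMC1 have all below, and the groups overlap in the other genes.

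TNC, on chromosome 9, encodes tenascin-C, an adhesion-modulating hexamer of the tumor stroma. It was 9.65, 9.64 and 9.43 in siFAH arrays, against 10.28, 10.21 and 10.41 in control arrays. Every siFAH array lay below every control array, by far more than the spread within either group. Its log2 change was -0.73 (SE 0.084, interval -0.91 to -0.54, adjusted p = 0.00144), and 42 genes had a lower one. THBS1, on chromosome 15, encodes thrombospondin-1, which binds CD36 and CD47 and activates latent TGF-β. It read 9.59, 9.36 and 9.42 in siFAH arrays, against 10.05, 10.07 and 10.20 in control arrays, again with no overlap. The log2 change was -0.65 (SE 0.081, interval -0.83 to -0.47, adjusted p = 0.00193), and 67 genes had a lower one. Both were called without each array, with log2 changes of -0.77 to -0.66 for TNC and -0.72 to -0.60 for THBS1.

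The laminin chains LAMB1 and LAMC1 encode the β1 and γ1 subunits shared by most laminins of basement membranes, where they join an α chain into a trimer. LAMB1, on chromosome 7, had signals of 9.23, 9.22 and 9.05 in siFAH arrays and 9.48, 9.43 and 9.59 in control arrays. LAMC1, on chromosome 1, had signals of 9.27, 9.19 and 9.13 in siFAH arrays and 9.43, 9.39 and 9.62 in control arrays. All siFAH arrays were below all control arrays for both genes, although by little in LAMC1. The log2 change of LAMB1 was -0.33 (SE 0.077, interval -0.51 to -0.16, adjusted p = 0.0248), and that of LAMC1 was -0.28 (SE 0.079, interval -0.46 to -0.11, adjusted p = 0.0484). Both calls were narrow. LAMC1 was not called when any 1 of the 6 arrays was left out (adjusted p 0.0592 to 0.159), after quantile normalization (0.0966), after cyclic loess (0.132) or when all probe sets on the array were tested (0.0706). LAMB1 lost its call without control replicate 2 (0.0556) or 3 (0.0827), without siFAH replicate 2 (0.0585) or 3 (0.0962), and after cyclic loess (0.0614).

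The other 4 genes did not pass, and their intervals say how large a change the arrays leave possible. FBN1, on chromosome 15, encodes fibrillin-1, the core of elastic fiber microfibrils. Its signals were 6.41, 6.42 and 6.24 in siFAH and 6.01, 6.17 and 6.28 in control arrays, which overlapped through replicate 3. Its log2 change was 0.20 (interval 0.010 to 0.39, adjusted p = 0.17). THBS2, on chromosome 6, encodes thrombospondin-2, a relative of thrombospondin-1 that restrains vessel growth. It had 5.011, 4.917 and 5.003 in siFAH and 4.716, 4.922 and 4.781 in control arrays, with 1 control array inside the siFAH range, and changed by 0.17 on the log2 scale (interval 0.0054 to 0.34, adjusted p = 0.178). For both genes the interval of the single gene excluded 0 but the adjusted p did not pass.

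SPP1, on chromosome 4, encodes osteopontin, an integrin-binding phosphoprotein. Its arrays overlapped, at 5.69, 5.83 and 5.59 in siFAH and 5.66, 5.53 and 5.53 in control cells. The log2 change was 0.13 (interval -0.050 to 0.31, adjusted p = 0.345). SPARC, on chromosome 5, encodes osteonectin, a collagen-binding matricellular protein. It had signals of 10.87, 10.91 and 10.82 in siFAH arrays and 10.93, 10.89 and 11.15 in control arrays, with control replicate 3 above the rest. Its log2 change was -0.12 (interval -0.30 to 0.055, adjusted p = 0.363). None of these 4 genes was called in any of the fits that left out 1 array.

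**Figure D2:**
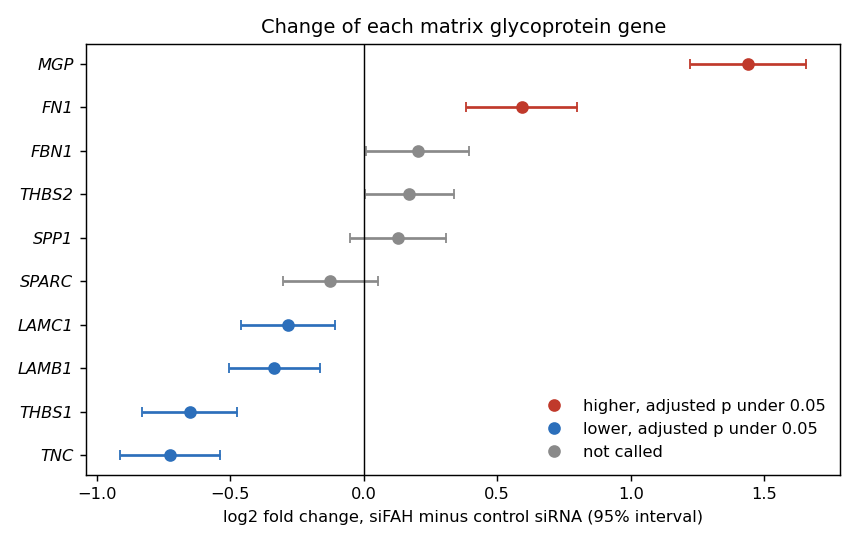
Log2 fold change of each matrix gene, siFAH minus control siRNA, with its 95% interval from limma, ordered by size, with genes called higher in red, called lower in blue and not called in gray. MGP stands apart at 1.44, FN1 follows at 0.59, and THBS1 and TNC are lowest at -0.65 and -0.73.

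Replicate 3 of each group often lay at the edge of its group. Control replicate 3 was the highest control array in 7 of the 10 genes, among them all 4 called lower, and siFAH replicate 3 was the lowest siFAH array in 8 of 10. The share of all genes with this order was not computed, so these counts do not set the 10 genes apart. Over all probe sets, control replicate 3 had the lowest array median (4.922) and siFAH replicate 3 the highest (5.038). Over the 6 arrays the Pearson correlation with TNC was 0.9853 for LAMB1, 0.9699 for THBS1 and 0.9492 for LAMC1, and that of FN1 with MGP was 0.8994. These correlations are across 6 arrays of 2 groups that differ in these genes, and are given as a description. SDs of the 10 genes were 0.044 to 0.133 in siFAH and 0.077 to 0.168 in control arrays.

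Shares over all genes were computed for the counts below. Genes with all siFAH arrays above all control arrays were 13.4% of all genes and those with all below 18.6%, against 2 and 4 of the 10 members. The methods' limits, at least 1.2-fold and a p under 0.05, were applied here to the unadjusted limma p, with SAM not rerun. At these limits 4.74% of all genes were higher and 7.83% lower, and the same 2 and 4 members passed. Calls of all genes leaned to lower, 64.7% of them, and this share was 53.7% after quantile normalization and 50.5% after cyclic loess. Signal level moved with direction. The dimmest 10% of genes had a median change of 0.048 and the brightest 10% had -0.11, with 18.9% of the brightest called lower and 8.6% called higher. MGP, FN1, TNC, THBS1, SPARC, LAMB1 and LAMC1 lie among those brightest genes, and all 4 members called lower are among them. FBN1, SPP1 and THBS2 are dimmer. The part of signal level in these changes was not tested.

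**Figure D3:**
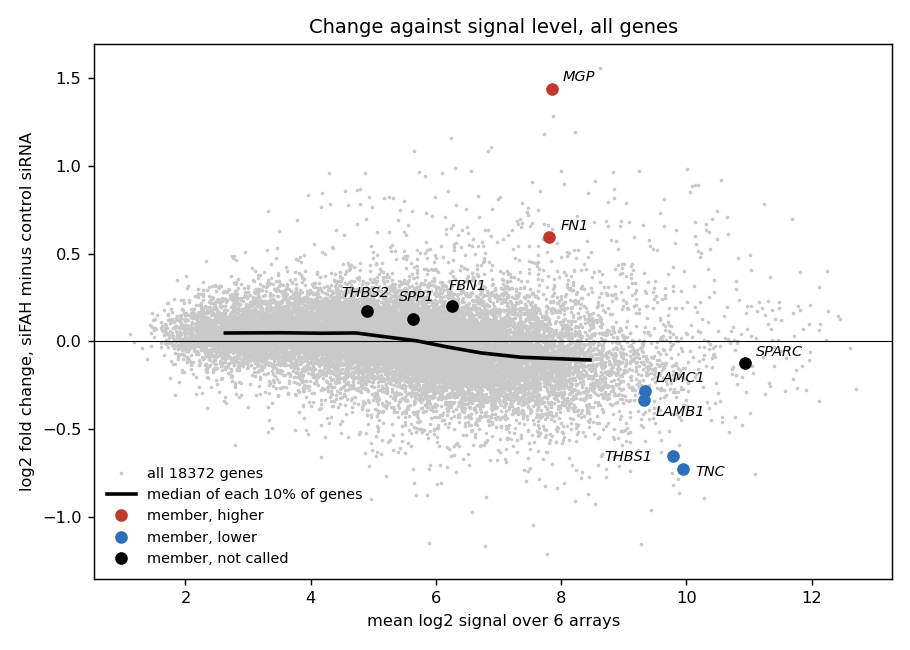
Log2 fold change against mean log2 signal over 6 arrays for all 18372 genes (gray), with the 10 matrix genes in color and a line through the median of each 10% of genes. The line falls to -0.11 in the brightest genes, where 7 of the 10 members lie by that mean. The control means of MGP and FN1 alone are below the start of that 10%.

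The other genes of these families were read from 13 lists (127 further genes tested), chosen with earlier results known. In them 6 genes were called higher (4.72%) and 12 lower (9.45%), with a median change of 0.02, beside 0.005 for all genes. Among 10 laminin chains, 3 were lower and none higher: LAMB1, LAMC1 and LAMA4, the α4 chain. LAMA4 had 7.81, 7.82 and 7.60 in siFAH and 7.96, 8.04 and 8.15 in control arrays, a log2 change of -0.31 (adjusted p = 0.0443). Only 1 chain, LAMB1, was called after quantile normalization and 0 after cyclic loess. LAMA4 lost its call in both (0.106 and 0.112), with all probe sets tested (0.0666), and when any 1 array other than control replicate 1 was left out (up to 0.156). LAMB2, the β2 chain, is 1 of the 7 chains not called and was named after its values were seen. It had a log2 change of -0.33 with an adjusted p of 0.0525.

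Fibronectin-like adhesive proteins had 3 of 13 called higher, FN1, TGFBI and EMILIN1, and none lower, with a median change of 0.13 that was 0.077 after quantile normalization and after cyclic loess. TGFBI, a TGF-β-induced adhesion protein, read 9.44, 9.29 and 9.18 in siFAH and 8.82, 8.91 and 9.04 in control arrays (log2 change 0.38, adjusted p = 0.0233). EMILIN1, which binds elastic fibers, changed by 0.27 (adjusted p = 0.0427). TGFBI lost its call without control replicate 1 or 2 or siFAH replicate 1 or 2 (up to 0.0746), and EMILIN1 when any 1 array other than control replicate 1 was left out (up to 0.13) or all probe sets were tested (0.0622). TNC was the only one called of 3 tenascins, and THBS1 the only one of 5 thrombospondins. Of the SPARC family, 1 of 8 was lower, SPOCK1, testican-1 (log2 change -0.44, adjusted p = 0.0107). Of the 5 SIBLING glycophosphoproteins, the family of SPP1, none was called by limma and none passed at an unadjusted p under 0.05. None was called by the methods' t-test after Benjamini-Hochberg adjustment either, which left no gene called on any of the lists.

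Enzymes that crosslink matrix had the most negative median of the lists, -0.22, with 3 of 9 called lower and none higher. TGM2, tissue transglutaminase, which crosslinks fibronectin, was 5.93, 5.81 and 5.72 in siFAH and 6.38, 6.55 and 6.67 in control arrays (log2 change -0.72, adjusted p = 0.00198). PXDN, peroxidasin, which crosslinks collagen IV, was 6.77, 6.94 and 6.73 in siFAH and 7.42, 7.41 and 7.44 in control arrays (-0.61, adjusted p = 0.00175). LOXL3, a lysyl oxidase, changed by -0.49 (adjusted p = 0.011). PXDN is on the list of basement membrane linkers too, where it was the only one of 12 called.

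Of 21 receptors of these glycoproteins, 4 were called lower and 1 higher, with a median change of -0.07. After quantile normalization and after cyclic loess 3 were lower and 2 higher, and the median was -0.0083 and 0.018. The gene gained was SDC2, syndecan-2, a cell-surface heparan sulfate proteoglycan named here after its values were seen (log2 change 0.22, adjusted p = 0.0906, and 0.026 and 0.0227 under those scalings). ITGB3, the β3 integrin subunit that pairs with αv to bind fibronectin, osteopontin and thrombospondin, had signals of 8.11, 8.18 and 7.94 in siFAH and 8.94, 8.90 and 9.17 in control arrays (log2 change -0.93, adjusted p = 0.000742). ITGA5, the α5 subunit of the main fibronectin receptor, was 7.57, 7.45 and 7.40 in siFAH and 7.88, 7.94 and 8.09 in control arrays (-0.50, adjusted p = 0.0056). ITGB8 changed by -0.50 (adjusted p = 0.00787) and ITGA6, a laminin receptor subunit, by -0.31 (adjusted p = 0.0181). ITGA8, a subunit that also binds RGD ligands, was the 1 receptor called higher without further scaling, at a log2 change of 0.53 (adjusted p = 0.0109). Its signals were low, 3.738, 3.717 and 3.735 in siFAH and 3.321, 3.323 and 2.944 in control arrays, at the 14.3 percentile of all genes. Without control replicate 3 the log2 change of ITGA8 was 0.41, still called. ITGA6 lost its call after quantile normalization (0.0559) and cyclic loess (0.0842), and without control replicate 3 (0.0537), siFAH replicate 2 (0.0646) or siFAH replicate 3 (0.0513).

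In the remaining lists few genes were called. MGP was the only one of 11 Gla proteins and vitamin K cycle genes called. Of 20 fibrillin microfibril and elastic fiber genes, MFAP2, a microfibril protein, was higher (0.30, adjusted p = 0.0379) and FBLN5, fibulin-5, lower (-0.34, adjusted p = 0.0408). Of 6 CCN genes, CCN6 was higher (0.29, adjusted p = 0.0418) and CCN2, connective tissue growth factor, lower (-0.33, adjusted p = 0.0222). The call of CCN6 was lost after quantile normalization (0.0592) and cyclic loess (0.06). With all probe sets tested CCN6 (0.0627), MFAP2 (0.058) and FBLN5 (0.0636) were not called. Leaving out 1 array also ended these calls: any array for MFAP2 (0.0529 to 0.114), any but siFAH replicate 2 for CCN6 (up to 0.151), any but control replicate 1 and siFAH replicate 2 for FBLN5 (up to 0.134), and control replicate 2 or 3 or siFAH replicate 3 for CCN2 (up to 0.0893).

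**Figure D4:**
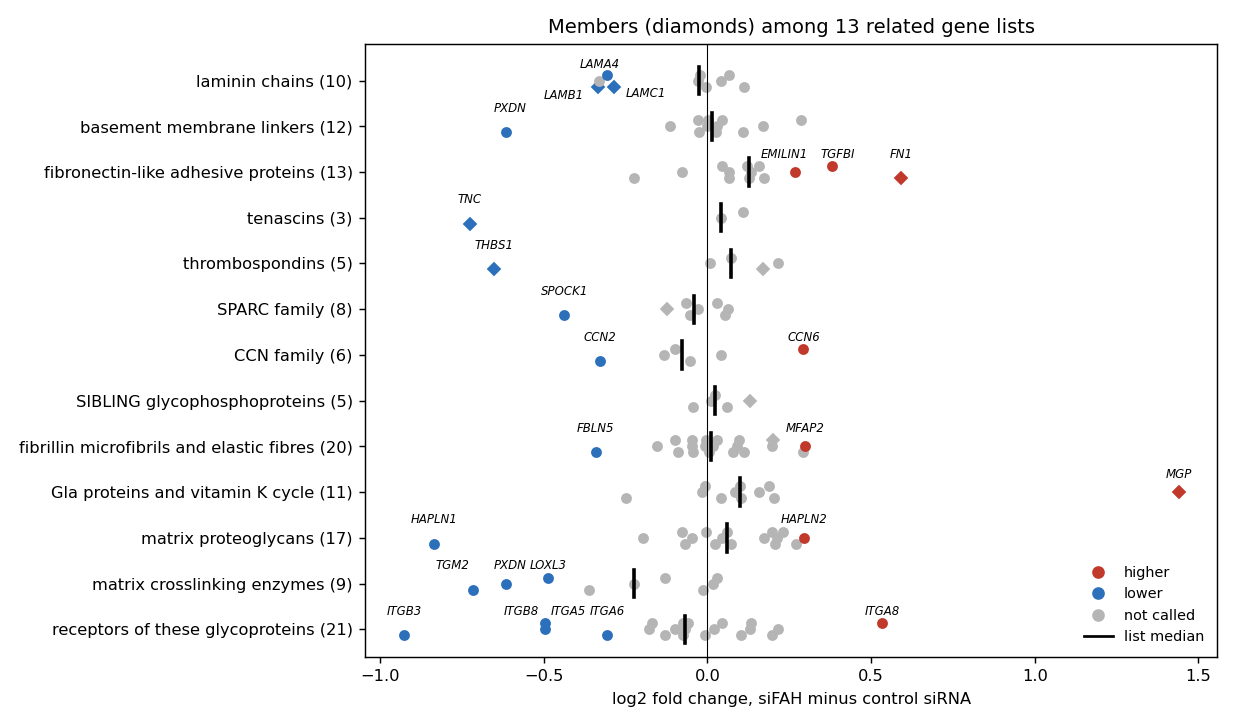
Log2 fold change of every gene tested on 13 related lists, 1 row a list with the number of genes in brackets, members of the set as diamonds and the list median as a black bar. MGP is the point farthest to the right, at 1.44, and ITGB3 the one farthest to the left, at -0.93.

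Markers of melanocytes and melanoma and of other cell types were read over their whole lists. SOX10, a factor of the melanocyte lineage, had mean signals of 8.36 in siFAH and 8.56 in control arrays. The pigment genes TYR and MLANA were among the dimmest 10% of genes. TYR had means of 2.90 in siFAH and 2.95 in control arrays, and MLANA 3.16 in siFAH and 2.90 in control arrays. The other markers not called were PMEL, at the 20.1 percentile of all genes, S100A1 (51.8), MITF (72.5) and S100B (84.1). Their log2 changes were -0.0047 for PMEL, 0.33 for S100A1, -0.031 for MITF and 0.067 for S100B. Of 8 melanocyte and melanoma markers, 1 was called, PRAME, lower (-0.33, adjusted p = 0.0274), and the mean signal of the list was 5.72 to 5.75 in siFAH and 5.67 to 5.79 in control arrays. Of 10 fibroblast markers none was called by limma and none passed at an unadjusted p under 0.05, with list means of 4.52 to 4.58 in siFAH and 4.45 to 4.52 in control arrays. None was called by the methods' t-test after Benjamini-Hochberg adjustment, which left no gene called on any of the lists. The same counts held for 6 endothelial markers, at 4.002 to 4.020 in siFAH and 3.89 to 3.99 in control arrays. Keratinocyte markers had 1 of 5 called higher, KRT10 (0.45, adjusted p = 0.0213), with list means of 4.47 to 4.60 in siFAH and 4.25 to 4.47 in control arrays. Leukocyte markers had 1 of 5 called higher, CD68, a lysosomal membrane protein (0.49, adjusted p = 0.00263), with list means of 4.69 to 4.75 in siFAH and 4.46 to 4.58 in control arrays. Without 1 array, PRAME lost its call in every fit but that without control replicate 1 (up to 0.105), and it was not called after quantile normalization (0.0505) or cyclic loess (0.0715), where 0 of the 8 markers were called. KRT10 lost its call without control replicate 2 or 3 or siFAH replicate 2 or 3 (up to 0.0832). The part of these markers in the changes of the matrix genes was not tested.

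**Figure D5:**
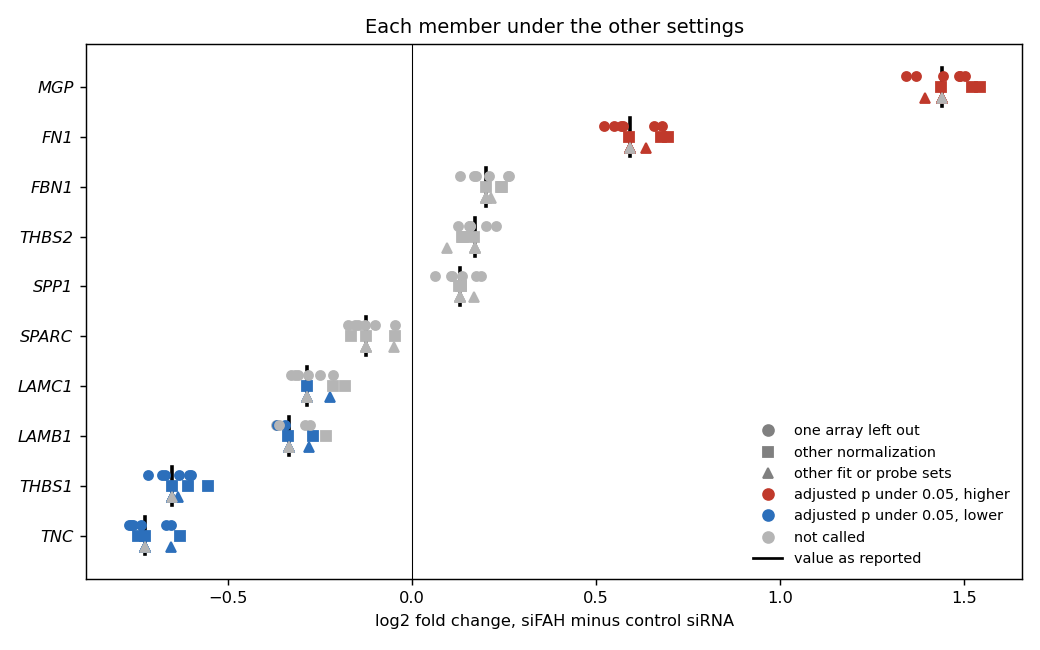
Log2 fold change of each matrix gene, siFAH minus control siRNA, under the other settings, with circles for fits that left out 1 array, squares for other normalizations, triangles for other fits or probe sets, and the black bar for the value as given in the text. MGP, FN1, TNC and THBS1 stay far from 0 and are gray only with the methods' t-test after Benjamini-Hochberg adjustment, while LAMB1 and LAMC1 lose their calls (gray) in several settings.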

How the data were processed

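The deposited values were log2 signals of probe sets that the authors made by RMA (robust multi-array average, which subtracts background, scales arrays to each other and sums up the probes of a set) with global scaling. The version is not given in the sources used here. They were used with no further scaling. Of 28829 probe sets, 19291 carried 1 gene symbol, 1735 several and 7803 none named here. Gene IDs matched a current RefSeq table for 19260, and 0 symbols changed. The brightest probe set of each of 18372 genes was fitted with lmFit and eBayes of limma 3.58.1, siFAH minus control siRNA, two-sided. SAM, which the methods name, was not rerun. The methods' t-test was run as an alternative, with a Benjamini-Hochberg adjustment added here, beside other normalizations, filters, fits and leaving out each array. The members, all gene lists and the naming rule (every member, every called gene of a list, or the 3 highest and 3 lowest where more than 6 were called) were chosen with earlier results of these data known. LAMB2, SDC2, BGN and the melanocyte and melanoma markers not called were named outside that rule. Precision is limited by the 6 arrays.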

Additional observations from a re-analysis of the deposited data

How the results depend on the processing

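MGP, FN1, TNC and THBS1 kept their direction and their calls in every alternative but the methods' t-test, and the log2 changes of FAH, the 10 matrix genes and the called genes of the lists kept their sign in every alternative run for them. That t-test called 0 of the 10 matrix genes after Benjamini-Hochberg adjustment (lowest adjusted p 0.0798), 0 genes of the other matrix lists, and 6 higher and 8 lower of all genes, although 2 members higher and 4 lower had an unadjusted p under 0.05 with it. The share of all genes at that unadjusted limit was not computed. The members called lower numbered 4, and 2 after cyclic loess. With the replicate number as a block they were 2, the genes of the other matrix lists called 9 (18 without the block), and all genes 299 higher and 462 lower (639 and 1172 without it). The block ended the calls of LAMB1, LAMC1, LAMA4, TGFBI, EMILIN1, ITGA6, CCN2, CCN6, MFAP2, FBLN5 and HAPLN2 (limma adjusted p 0.0579 to 0.112). Among the cell type markers it ended those of PRAME (0.0773) and KRT10 (0.0583). Arrays with the same number had correlations of -0.1552, -0.08909 and -0.2744 between their deviations from the group means. For arrays with different numbers the values were -0.09228 to 0.2406. With 3 arrays in a group such values are tied to each other, so they cannot tell whether the numbers pair the arrays. Testing all probe sets gave 13 calls in the other matrix lists. Array weights raised the calls in other matrix lists to 32 and all genes called higher to 1170. Leaving out each array in turn gave 2 to 3 members lower, 10 to 17 genes of the other lists, 267 to 653 genes higher and 390 to 1192 lower over all genes. Over 1.5 times fewer genes of all were called, and 2 members lower, without control replicate 2, control replicate 3, siFAH replicate 2 or siFAH replicate 3, and the 10 genes of the other lists came without control replicate 2 or 3. The cause of these differences was not tested.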

Other observations

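The matrix proteoglycans and their link proteins were also read, as 17 genes of which 1 was called higher and 1 lower. HAPLN1, a link protein that holds proteoglycans to hyaluronan, had signals of 7.66, 7.63 and 7.27 in siFAH arrays and 8.30, 8.26 and 8.50 in control arrays, with no overlap (log2 change -0.83, limma adjusted p = 0.00244). HAPLN2, a link protein of brain matrix, had a log2 change of 0.30 (adjusted p = 0.0194), a call lost without control replicate 2 or 3 or siFAH replicate 2 or 3 (up to 0.0726). BGN, biglycan, named after its values were seen, had a log2 change of 0.27 (adjusted p = 0.0888) and was called after quantile normalization (0.0279) and cyclic loess (0.0213). The median change of the list was 0.06, and 0.0059 and 0.01 under those scalings.

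Genes whose signals followed those of a member most closely were read as a description over 6 arrays, by Pearson r, with no test. The arrays form 2 groups, so any gene that differs between them scores high. The 5 genes closest to MGP were SELENOS, GUCY1A2, IGFBP5, C5AR1 and POLR1D (r 0.9973 to 0.9989). Among these, IGFBP5, which binds insulin-like growth factors, had the largest log2 change, 1.56, while SELENOS had 0.19 and was not called (adjusted p = 0.0841). The 5 closest to TNC were MCM10, ADARB1, MYO1E, TIMM22 and XPOT (r 0.9979 to 0.9993), with log2 changes of -0.31, -0.40, -0.70, -0.31 and -0.52.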
